A study of Homo sapiens with 30 samples.

Results

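The comparison described here is that of T47D cells treated with siRNA against the NELF-B subunit with T47D cells treated with a control siRNA against luciferase. T47D is an established luminal, oestrogen receptor-positive human breast cancer line. The members were chosen by the siRNA named in the sample labels: 3 siNELF-B and 3 control samples at gene level, and the same 6 arrays at exon level, of 30 samples (15 arrays, each at both levels) in the series. All 22011 transcript clusters of the gene-level table, called genes below, were compared. In both groups the siRNA was used at 10 nM, the medium was replaced after 48 hours, and cells were harvested 48 hours after that. Ribosomal RNA was removed from 1 ug of total RNA, and labelled cDNA was hybridised to Affymetrix human exon arrays. The remaining 9 arrays carry siRNA against NELF-A, NELF-C or NELF-E, 3 each, and enter the fit for its estimate of spread. The series text describes the arrays of a condition as technical repeats, so p-values measure the spread between repeats and not between separate cultures.

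The negative elongation factor, NELF, is built from the subunits A, B, C or its shorter form D, and E. Together with the factor DSIF it holds RNA polymerase II in a paused state shortly after transcription starts, until the kinase P-TEFb releases the polymerase into elongation. NELF-B, also known as COBRA1, was first described as a cofactor of BRCA1 and binds oestrogen receptor alpha, which is why the complex has been studied in breast cancer cells. Interferon-stimulated genes, which lead the results below, are switched on when interferon receptors signal through JAK kinases to the factor ISGF3, which contains IRF9. ISGF3 binds a promoter element called the interferon-stimulated response element.

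The 3 siNELF-B arrays did not match one another. Their pairwise correlations over all genes were 0.9729 between replicates 1 and 2, 0.9513 between 1 and 3, and 0.9172 between 2 and 3. The median SD of a gene over the 3 arrays was 0.398 in siNELF-B, against 0.148 in control, 0.186 in siNELF-A, 0.155 in siNELF-C and 0.147 in siNELF-E, all on the log2 scale. The arrays also differed in how far they lay from the controls. On replicate 2, 4.05% of genes were at least 1.5-fold below the control mean, compared with 24.4% on replicate 1 and 40.4% on replicate 3. Each control array, set against the other 2, gave 2.74% to 3.67%. Arrays of the other knockdowns, set against the control mean, ranged from 10.6% (siNELF-E replicate 3) to 22.7% (siNELF-C replicate 2). Replicate 2 of siNELF-B was thus the only knockdown array close to the controls by this measure. The difference grew with signal: among genes with a control mean of 6.74 or more the median difference from the control mean was -0.55 on replicate 1, -0.02 on replicate 2 and -1.11 on replicate 3, and among genes with a control mean up to 2.71 it was 0.03, 0.00 and 0.13. Results below are therefore given array by array, and a change seen on replicate 2 as well as on replicates 1 and 3 is named as such.

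**Figure D1:**
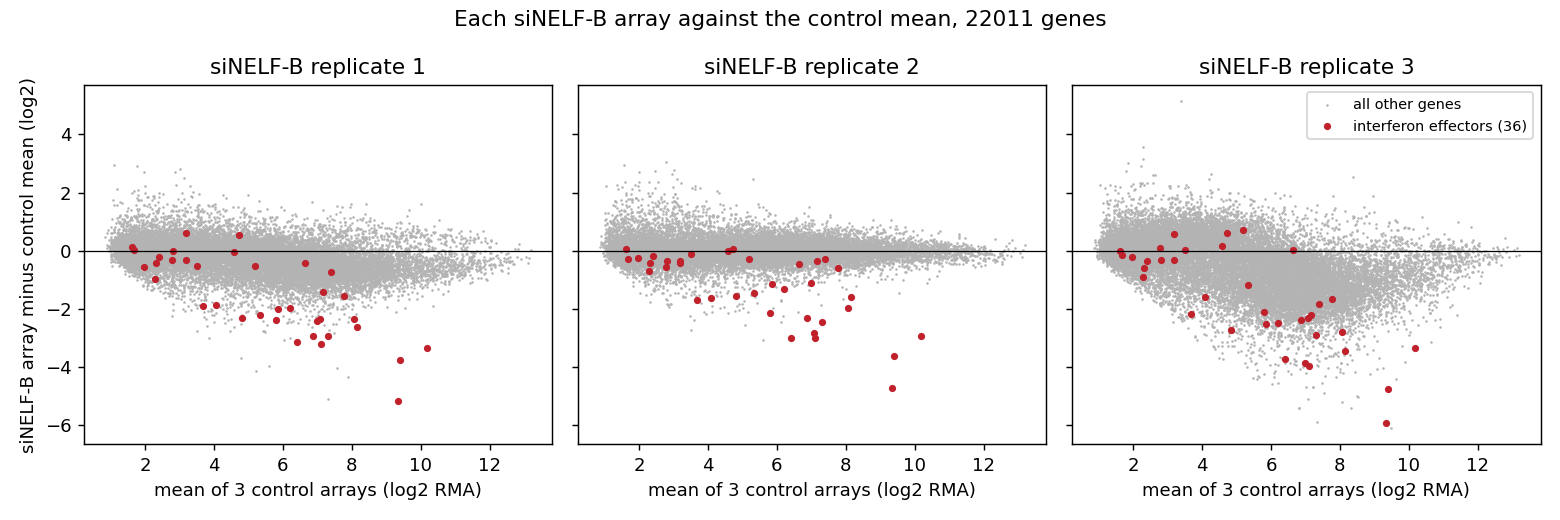
Difference of each siNELF-B array from the control mean (log2, vertical axis) against the control mean (log2 RMA, horizontal axis) for 22011 genes, with the 36 measured interferon effectors in red. Grey points bend below 0 at high signal on replicates 1 and 3 but not on replicate 2, and IFIT1 lies 5.15, 4.71 and 5.93 below the control mean on the 3 panels.

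In the fit to all 15 arrays, 922 genes (4.19%) were called lower and 45 (0.204%) higher in siNELF-B than in control. A call required an adjusted p below 0.05 over all genes and a change of at least 1.5-fold. Of the 922, 512 had a control mean of 6.74 or more, and 9 one up to 2.71. Each class holds 5503 genes, so that 9.3% of the brightest genes were called lower. The spread shared by the 5 groups is smaller than that of siNELF-B itself, so these p-values are too small for this comparison. With the 6 arrays of the 2 groups alone, 12 genes (0.0545%) were called lower and 0 (0.0%) higher by limma, while 2424 lower and 359 higher genes of the 22011 had an unadjusted p below 0.05. After quantile normalization, which removes the difference in array spread, 472 genes (2.14%) were lower and 211 (0.959%) higher, and 460 of the 922 and 38 of the 45 were among them. Centring each array on its median gave 632 lower and 135 higher genes, and centring on its 75th percentile gave 348 and 392. That percentile was 6.27, 6.75 and 5.81 on siNELF-B replicates 1, 2 and 3, and 6.66 to 6.83 on the control arrays. The 3 siNELF-B arrays lay wholly below the 3 control arrays for 3646 genes (16.6%) and wholly above for 1226 (5.57%).

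Single arrays decided most of the count. Without siNELF-B replicate 2 the fit called 6676 genes lower and 774 higher, and without replicate 1 it called 96 and 7. Without replicate 3 it called 316 and 41, and without control replicate 1, 2 or 3 it called 93, 164 or 83 lower and 5, 4 or 4 higher. Leaving out any 1 array of another knockdown gave between 325 and 679 lower calls. Of the 922 genes, 77 were called lower whichever of the 15 arrays was left out, and 72 of these were also called after quantile normalization. Of the 45 higher genes, 1, which has no symbol here, held in the same way.

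NELFB, the gene targeted by this siRNA, was not analysed here, and its knockdown was therefore not checked at the transcript. NELFCD, the gene for the NELF-C and NELF-D subunits, stood at 9.33, 9.19 and 9.23 in control and 8.59, 9.29 and 7.95 in siNELF-B (log2 change -0.64, adjusted p = 0.136). The groups overlap through replicate 2, and the change did not pass. NELFE and NELFA were measured as the median of 15 probe sets each at exon level. NELFE, which carries the RNA-binding subunit, measured 7.29, 7.22 and 7.27 in control and 6.79, 7.18 and 6.52 in siNELF-B (-0.43, adjusted p = 0.194). NELFA measured 6.24, 6.14 and 6.34 in control and 6.44, 6.28 and 5.81 in siNELF-B (-0.06, adjusted p = 0.866). The groups do not overlap for NELFE and do for NELFA, and neither gene passed.

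Interferon effector genes, the antiviral proteins made in response to interferon, were lower as a list on all 3 siNELF-B arrays. Of 36 measured members of a list of 41, 21 were called lower and 0 higher, beside 4.19% and 0.204% of all genes. On the 6 arrays alone 8 of the 36 were called lower (0.0545% of all genes), and after quantile normalization 21 (2.14%). After centring on the 75th percentile 18 were called lower, beside 348 of all 22011 genes. For 26 the siNELF-B arrays lay wholly below the controls, beside 16.6% of all genes. The median difference of the 36 from control was -1.70, -0.91 and -1.73 on siNELF-B replicates 1, 2 and 3, whereas the median over all genes was -0.16, -0.01 and -0.30. On replicate 2, 19 of the 36 were at least 1.5-fold below the control mean, beside 891 of all 22011 genes (4.05%). Among genes with 1 symbol and a level above the 40th percentile, 254 were at least 1.5-fold below the control mean on that array, 21 of them in the interferon or antigen presentation lists. At least 2-fold below were 60 such genes, 20 of them in these lists.

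IFIT1, which binds foreign RNA that lacks the cap methylation of the cell's own messages, had log2 values of 9.25, 9.20 and 9.58 on the control arrays, compared with 4.20, 4.63 and 3.42 in siNELF-B. Every siNELF-B array lay at least 4.57 log2 units below every control array, and IFIT1 fell 38.4-fold (log2 change -5.26, SE 0.24, adjusted p = 4.37e-07; 0.0186 on the 6 arrays). MX1, a GTPase that traps viral nucleocapsids, measured 9.32, 9.37 and 9.53 in control and 5.66, 5.79 and 4.66 in siNELF-B. It fell 16.4-fold (-4.04, SE 0.23, adjusted p = 1.29e-06; 0.0231 on the 6 arrays), with the lowest value on replicate 3. IFI6, a small membrane protein of the interferon response, measured 9.96, 10.25 and 10.35 in control and 6.86, 7.27 and 6.84 in siNELF-B, a 9.17-fold fall (-3.20, SE 0.18, adjusted p = 1.29e-06; 0.0186 on the 6 arrays). For these 3 genes replicate 2, which otherwise lay close to the controls, stood with the other siNELF-B arrays and apart from every control array.

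The OAS enzymes make 2'-5'-linked oligoadenylates that activate the ribonuclease RNase L. OAS2 measured 7.20, 6.98 and 7.11 in control and 3.88, 4.09 and 3.13 in siNELF-B (-3.39, SE 0.22, adjusted p = 4.39e-06; 0.0231 on the 6 arrays). OAS1 measured 7.46, 7.11 and 7.37 in control and 4.39, 4.86 and 4.44 in siNELF-B (-2.75, SE 0.15, adjusted p = 1.29e-06; 0.0222 on the 6 arrays). Both fell, with no overlap between the groups. OAS3 and OASL also passed, at -2.38 (adjusted p = 1.21e-05; 0.0622 on the 6 arrays) and -1.60 (0.00527; 0.392). Other IFIT genes fell as well. IFIT3 measured 6.37, 6.47 and 6.38 in control and 3.26, 3.40 and 2.70 in siNELF-B (-3.28, adjusted p = 1.08e-05; 0.0186 on the 6 arrays), and IFIT5 measured 5.90, 5.71 and 5.80 against 3.42, 3.67 and 3.70 (-2.21, adjusted p = 8.59e-06; 0.0222).

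IFITM1, a membrane protein that restricts virus entry, measured 6.87, 6.52 and 7.23 in control and 3.93, 4.55 and 4.50 in siNELF-B (-2.55, adjusted p = 3.55e-05; 0.0688 on the 6 arrays). IFI27 measured 6.98, 6.86 and 7.38 in control and 4.75, 4.24 and 4.76 in siNELF-B (-2.49, adjusted p = 1.08e-05; 0.0431 on the 6 arrays), and here replicate 2 was the lowest. The protein kinase EIF2AK2, known as PKR, which halts translation on sensing double-stranded RNA, fell by 2.46 on the log2 scale (adjusted p = 0.0211; 0.392 on the 6 arrays), unevenly, at 4.57, 5.87 and 3.14 against 6.68, 7.08 and 7.21 in control. BST2, or tetherin, which holds budding virus on the cell surface, was close to the threshold (-1.31, adjusted p = 0.0491) and lost its call in 14 of the 15 fits that left out an array. XAF1, bright at 6.72, 6.64 and 6.58 in control, was not called at 6.22, 6.18 and 6.67 (-0.29, adjusted p = 0.4). ISG15, the ubiquitin-like modifier, had a control mean of 5.20 and differences of -0.51, -0.30 and 0.72 on the 3 arrays.

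**Figure D2:**
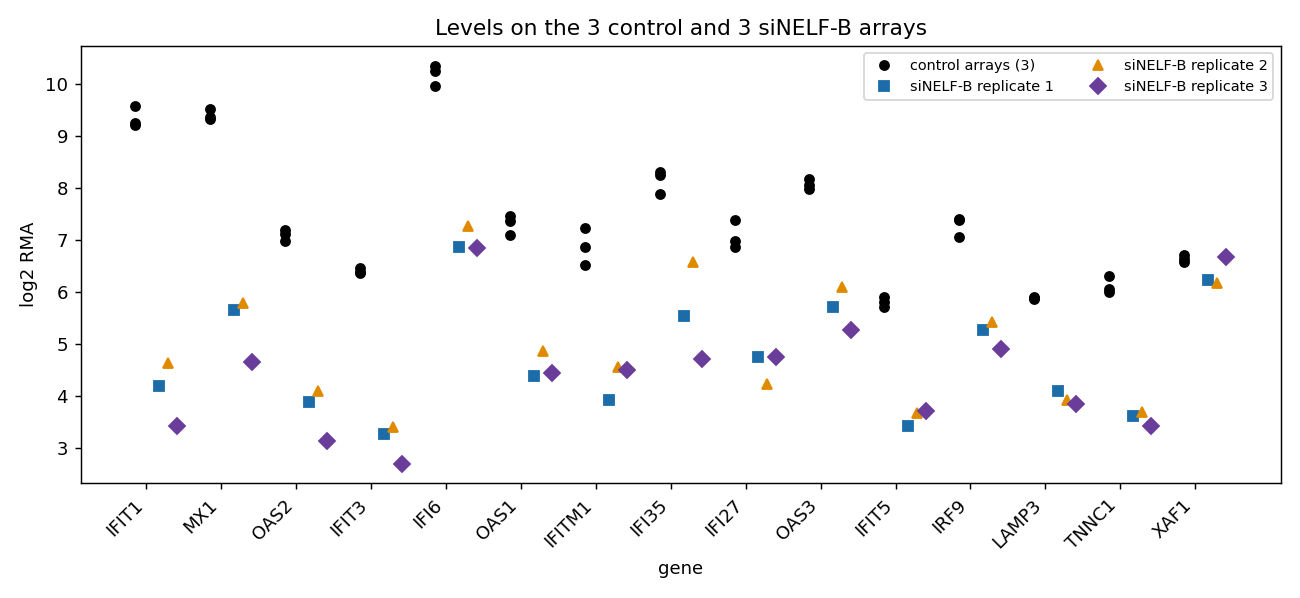
Log2 RMA values of 15 genes (horizontal axis) on the 3 control arrays (black) and on siNELF-B replicates 1 to 3 (squares, triangles and diamonds). For 14 of the genes the siNELF-B arrays sit below all control arrays, replicate 2 included; for XAF1, replicate 3 at 6.67 lies among the controls.

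Most exon-level probe sets gave the same direction along these genes. Of 21 probe sets of MX1, 21 had no overlap between the groups and were lower in siNELF-B, as did 26 of 26 for OAS2, 7 of 7 for IFI6, 8 of 9 for IFIT1 and 13 of 15 for OAS1. Among all 287329 probe sets, 39532 (13.8%) did so. The interferon effectors had 579 probe sets, of which 305 (52.7%) were lower without overlap and 5 were higher without overlap. The mean was lower in siNELF-B for 477 of the 579, beside 180760 of all 287329. For IFI27 it was lower for 7 of 9 probe sets. Over all probe sets 452 (0.157%) were called lower and 19 (0.00661%) higher on 15 arrays, and 0 (0.0%) on the 6 arrays alone. Probe sets of interferon effectors supplied 118 of the 452.

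Promoters of some interferon effectors are shown because the interferon-stimulated response element is what the list's members are known to share. RefSeq promoter sequences (build GRCh38.p14, 250 bases before to 50 after the start) were searched on both strands for the core GAAANNGAAA, a direct repeat of GAAA; matches may overlap one another. The core was present in 21 of 30 promoters found for the measured interferon effectors (70.0%), compared with 3.65% of all 27305 promoters in the table. The windows below are written 5′ to 3′ on the gene's strand, each with 1 match in capitals; a match that reads TTTCNNTTTC lies on the opposite strand. Windows are given only for genes with a match, and MX1, OAS1 and OAS2 are not among those shown. A match is a description of the letters and no evidence of binding.
IFIT1, chr10:89392482-89392541, plus strand: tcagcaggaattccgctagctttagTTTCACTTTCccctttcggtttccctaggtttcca
IFIT3, chr10:89327850-89327909, plus strand: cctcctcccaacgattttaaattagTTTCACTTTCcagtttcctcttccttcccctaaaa
IFIT5, chr10:89414498-89414557, plus strand: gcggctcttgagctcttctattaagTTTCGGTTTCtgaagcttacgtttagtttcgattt
IFI6, chr1:27672273-27672332, minus strand: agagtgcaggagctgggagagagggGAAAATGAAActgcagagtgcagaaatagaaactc
IFI27, chr14:94110616-94110675, plus strand: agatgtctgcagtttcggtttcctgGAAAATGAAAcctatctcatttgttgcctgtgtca
IFITM1, chr11:313975-314034, plus strand: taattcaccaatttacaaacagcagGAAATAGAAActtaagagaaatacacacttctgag
OAS3, chr12:112938306-112938365, plus strand: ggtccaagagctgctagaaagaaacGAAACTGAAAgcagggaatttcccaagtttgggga
DDX60, chr4:168318806-168318865, minus strand: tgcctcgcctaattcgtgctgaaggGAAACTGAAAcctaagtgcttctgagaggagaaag

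The IFIT1, IFIT3 and IFIT5 windows come from one stretch of chromosome 10 and carry the capitalised match on the strand opposite to the gene, while in the other 5 windows it lies on the gene's strand. Further matches stand in lower case in some windows, among them TTTCGGTTTC in IFIT1 and IFI27 and GAAATAGAAA in IFI6. IFIT1 and IFIT3 share the match TTTCACTTTC, and IFI6 and IFI27 share GAAAATGAAA. OAS3 and DDX60 share GAAACTGAAA. Log2 changes of the 8 genes shown ranged from -1.91 for DDX60, a helicase of the antiviral response, to -5.26 for IFIT1. Of the genes called lower whichever array was left out, 14 of 20 with a promoter in the interferon and antigen presentation lists held the core, and 2 of 30 outside them (6.67%). The measured mitosis genes held it in 2 of 43 promoters, and the oestrogen-induced genes in 0 of 20.

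Genes that transmit the interferon signal or sense viral RNA formed a second list. Of its 27 measured members, 12 were called lower and 0 higher, beside 4.19% and 0.204% of all genes. After quantile normalization 8 were lower (2.14% of all genes), and on the 6 arrays 0 (0.0545%). The list's median differences were -0.70, -0.38 and -0.72 on replicates 1, 2 and 3. IRF9, the DNA-binding part of ISGF3, measured 7.41, 7.05 and 7.38 in control and 5.28, 5.43 and 4.89 in siNELF-B, and fell 4.23-fold (-2.08, SE 0.17, adjusted p = 4.97e-05; 0.0622 on the 6 arrays). The groups do not overlap and the siNELF-B arrays are close together. The RNA sensors RIGI and IFIH1 fell, with log2 changes of -1.53 and -1.05 (adjusted p = 0.0105 and 0.00592; 0.392 for both on the 6 arrays). The ubiquitin ligase DTX3L and its partner PARP9 also fell, with log2 changes of -2.11 and -1.42 (adjusted p = 0.0145 and 0.00675). JAK1, the receptor-bound kinase, was called at -0.67 on 15 arrays (adjusted p = 0.0324) but lost its call in 11 of 15 fits that left out an array. The adaptor MAVS (-0.53, adjusted p = 0.062) and the kinase TBK1 (-0.94, adjusted p = 0.0981) did not pass.

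Antigen presentation genes serve the display of peptides on class I molecules, and 3 of 14 measured members were called lower (4.19% of all genes), 2 after quantile normalization (2.14%). PSMB8, an immunoproteasome subunit, measured 6.87, 6.75 and 7.27 in control and 4.50, 5.81 and 4.17 in siNELF-B (-2.13, adjusted p = 0.0145). TAP2, a subunit of the peptide transporter, measured 5.96, 5.93 and 5.90 against 4.86, 5.14 and 4.62 (-1.06, adjusted p = 0.00183). HLA-F measured 5.45, 5.55 and 5.51 against 4.34, 4.98 and 4.72 (-0.83, adjusted p = 0.0379) and was not called after quantile normalization (-0.52, adjusted p = 0.133). Groups did not overlap for these 3 genes, and the chaperone CALR showed overlapping groups and no call (-0.17, adjusted p = 0.35).

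The interferon genes were also lower than control in the other knockdowns, which are compared with the same 3 control arrays. IFIT1 stood at 4.08 in siNELF-B, 5.10 in siNELF-A, 4.32 in siNELF-C and 4.02 in siNELF-E as group means, against 9.35 in control. Of the 36 effectors, 21, 21 and 20 were called lower in siNELF-A (2.83% of all genes), siNELF-C (5.3%) and siNELF-E (4.04%). Set directly against siNELF-A, 1 effector was lower in siNELF-B (3.46% of all genes) and 1 higher (0.818%). Against siNELF-C, 0 were lower (1.6%) and 0 higher (0.536%). Against siNELF-E, 1 was lower (5.74%) and 1 higher (1.16%). The higher effector was XAF1 in both cases, by 0.94 over siNELF-A (adjusted p = 0.0347) and 1.59 over siNELF-E (adjusted p = 0.00185). Its changes from control were -1.23 in siNELF-A, -0.92 in siNELF-C, -1.88 in siNELF-E and -0.29 in siNELF-B. IFIT1 was lower in siNELF-B than in siNELF-A by 1.02 (adjusted p = 0.0354). Since the series has no untransfected group among its 5 groups, a high level with the luciferase siRNA and a low level with the NELF siRNAs cannot be told apart.

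Of the 77 genes called lower in every fit that left out an array, 65 had 1 symbol and 22 lay in the interferon and antigen presentation lists. The genes named next are not on those lists. TNNC1, a calcium-binding subunit of troponin in slow and cardiac muscle, measured 6.05, 5.99 and 6.30 in control and 3.62, 3.69 and 3.42 in siNELF-B, a 5.81-fold fall (-2.54, SE 0.22, adjusted p = 7.57e-05; 0.0186 on the 6 arrays). The siNELF-B arrays agree closely, and 5 of 5 probe sets were lower without overlap. LAMP3, a lysosomal membrane protein that interferon is also known to induce, measured 5.88, 5.87 and 5.91 in control and 4.09, 3.92 and 3.85 in siNELF-B (-1.93, SE 0.15, adjusted p = 2.01e-05; 0.0231 on the 6 arrays). Of the 12 genes called on the 6 arrays, 8 were interferon effectors, TNNC1 and LAMP3 were outside the lists, and the other 2 have no symbol here; 11 of the 12 were among the 922.

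Further genes held in every such fit but were not called on the 6 arrays. The neuropeptide receptor NPY1R, an oestrogen-responsive gene in breast cells, measured 7.07, 7.10 and 7.38 in control and 4.62, 5.71 and 4.46 in siNELF-B (-2.25, adjusted p = 0.000947; 0.315 on the 6 arrays). PCP4, a calmodulin-binding protein, measured 9.68, 9.48 and 9.47 against 7.59, 8.10 and 7.53 (-1.80, adjusted p = 5.75e-05; 0.113 on the 6 arrays). Replicate 2 was the highest siNELF-B array for both and lay below all controls. The gap junction protein GJA1, the galectin LGALS1, the ubiquitin ligase TRIM21, also known to be induced by interferon, the hormone STC1 and the fatty acid elongase ELOVL2 also fell, with log2 changes of -1.55, -1.52, -1.86, -1.52 and -1.71. Their adjusted p-values were 0.000896, 0.00141, 0.000588, 0.00325 and 0.00675, and between 0.231 and 0.392 on the 6 arrays.

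Genes that set siNELF-B apart were those called in the same direction against control and against each other knockdown. These were 32 lower (0.145%) and 2 higher (0.00909%), 25 of them with 1 symbol. All 32 lower genes had no overlap with control, 21 were at least 1.5-fold below the control mean on replicate 2, and 20 were also called after quantile normalization. With 6-array fits for each pair of groups, 0 genes met the criteria by limma. RWDD4 measured 6.04, 5.94 and 6.39 in control and 4.14, 4.43 and 2.24 in siNELF-B (-2.52, adjusted p = 0.0142), while its changes with siRNA against subunit A, C and E were 0.11, -0.51 and 0.49. CRIPT, a binding partner of the synaptic scaffold PSD-95, measured 6.94, 7.25 and 7.37 against 5.12, 6.10 and 4.48 (-1.95, adjusted p = 0.0111), and -0.07, -0.41 and 0.20 in the other knockdowns. RP2, which takes part in protein traffic to cilia, measured 6.125, 6.198 and 6.412 against 3.80, 5.27 and 3.73 (-1.98, adjusted p = 0.0105), and -0.43, 0.23 and 0.74. In all 3 genes the controls and the siNELF-B arrays stand apart, with replicate 2 the highest of its group.

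UBL3, a ubiquitin-like membrane protein, was the least even, at 7.35, 7.18 and 7.43 in control and 5.47, 6.63 and 3.73 in siNELF-B (-2.04, adjusted p = 0.0429), and lost its call in 13 of 15 fits that left out an array. The transporters SLC49A4 and SLC35A5 fell, with log2 changes of -1.72 and -1.55 (adjusted p = 0.0106 and 0.0147). SLC49A4 measured 0.06, -0.05 and 0.55, and SLC35A5 -0.49, -0.28 and -0.42, in the A, C and E knockdowns. Only 3 of the genes with 1 symbol were also called lower against control in every fit that left out an array: ATP6AP1, BSG and UFM1, named after their values were seen. ATP6AP1, an accessory subunit of the vacuolar proton pump, measured 9.79, 9.57 and 9.64 in control and 8.0, 8.65 and 8.23 in siNELF-B (-1.37, SE 0.17, adjusted p = 0.00141; 0.315 on the 6 arrays). Its changes in the other knockdowns were -0.26, -0.08 and 0.18. BSG, or basigin, a partner of lactate transporters, measured 9.78, 9.73 and 9.71 against 8.33, 9.02 and 8.67 (-1.07, adjusted p = 0.00625), and UFM1, a ubiquitin-like modifier, 7.10, 7.17 and 7.28 against 5.94, 6.40 and 6.22 (-0.99, adjusted p = 0.00325). The UFM1 change was -0.52 after quantile normalization and did not pass (adjusted p = 0.123). Among the 23 genes of this group with a RefSeq promoter, 0 held the interferon core. The share was 3.04% for promoters of all measured genes with 1 symbol, so 0 of 23 is no result about the group. The higher gene with a symbol was the olfactory receptor OR52N5, dim in control at 2.73, 2.30 and 1.61 and at 3.30, 3.31 and 4.55 in siNELF-B (1.51, adjusted p = 0.0324).

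TNNC1, PCP4 and GJA1 fell in siNELF-B and differed among the knockdowns, but were not called lower than in each of the others. TNNC1 changed by -2.54 in siNELF-B and -2.11 in siNELF-E but measured 0.76 in siNELF-A and 0.33 in siNELF-C; siNELF-B was lower than siNELF-A (adjusted p = 2.31e-05) and siNELF-C (6.33e-05), and the difference from siNELF-E did not pass (0.259). PCP4 measured 0.05 in siNELF-A, -1.17 in siNELF-C and -3.45 in siNELF-E, and siNELF-B at -1.80 differed from siNELF-A (adjusted p = 7.54e-05) and siNELF-E (0.000191). GJA1 measured 0.78 in siNELF-A against -1.55 in siNELF-B (adjusted p of the difference 4.53e-05). ANXA1, a phospholipid-binding annexin, is 1 of the 32 genes lower in siNELF-B than in control and in each other knockdown. It had changes of 3.18 in siNELF-A, 1.20 in siNELF-C, -0.19 in siNELF-E and -1.35 in siNELF-B, where it measured 2.77, 3.93 and 2.96 against 4.67, 4.31 and 4.71 in control. The adjusted p was 0.0222 against control and 7.81e-06, 0.00042 and 0.0223 against siNELF-A, siNELF-C and siNELF-E.

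**Figure D3:**
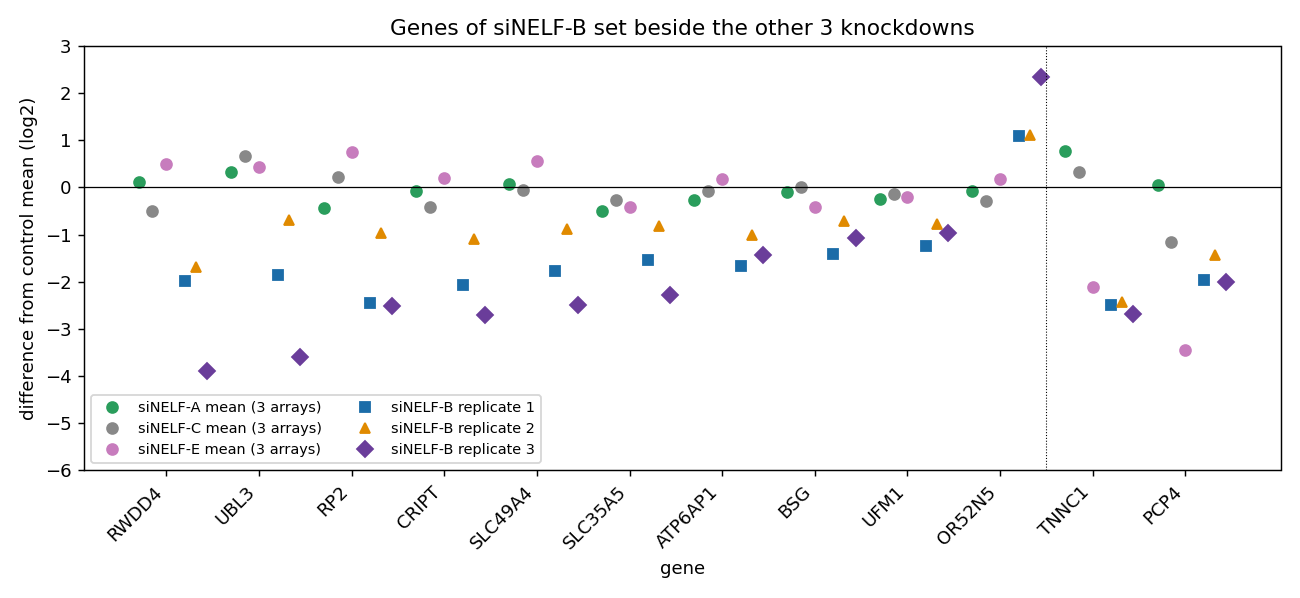
Difference from the control mean (log2, vertical axis) of 12 genes: siNELF-B arrays singly (squares, triangles, diamonds) and the 3-array means of the A, C and E knockdowns (circles). Left of the dotted line are genes called against control and each other knockdown, where the siNELF-B arrays lie to one side of the circles; TNNC1 and PCP4, on the right, are also low in siNELF-E, at -2.11 and -3.45.

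Cell division genes showed lower values mainly on replicates 1 and 3. Of 50 measured mitosis genes, 5 were called lower and 0 higher, beside 4.19% of all genes and 9.3% of the brightest. After quantile normalization 1 was lower (2.14% of all genes), and the 3 arrays lay wholly below the controls for 22 (16.6% of all genes). The number of calls is thus near the share among bright genes, but the size of the change is not. After quantile normalization the median change of the list was -0.60, beside -0.12 for the brightest genes. By array it was -0.54, -0.14 and -1.11 on replicates 1, 2 and 3. On the deposited values the median difference of the list was -0.91 on replicate 1, -0.14 on replicate 2 and -1.85 on replicate 3. Of these genes 0 were called in every fit that left out an array. DLGAP5, a spindle protein, measured 7.97, 8.0 and 8.10 in control and 6.82, 7.68 and 5.69 in siNELF-B (-1.30, adjusted p = 0.0499). SPC24, a kinetochore protein, measured 6.237, 6.204 and 6.347 against 5.18, 5.61 and 5.11 (-0.96, adjusted p = 0.0249), and did not pass after quantile normalization (-0.57, adjusted p = 0.0711). For both, replicate 2 was the siNELF-B array nearest to the controls. The list was also lower in the other knockdowns, with median changes of -0.84 in siNELF-A, -1.34 in siNELF-C and -2.14 in siNELF-E, beside -0.93 in siNELF-B. Beside siNELF-E, 25 of the 50 mitosis genes were higher in siNELF-B (1.16% of all genes), while 0 were lower (5.74%).

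DNA replication genes were called lower for 9 of 54 measured members (4.19% of all genes, 9.3% of the brightest) and for 7 after quantile normalization (2.14% of all genes), with medians of -0.87, -0.09 and -1.51 on the 3 arrays. POLD3, a subunit of polymerase delta, measured 6.57, 6.49 and 6.84 in control and 5.22, 6.13 and 4.21 in siNELF-B (-1.45, adjusted p = 0.0404), and GINS1 of the replicative helicase fell by 1.23 (adjusted p = 0.0425). Both lost their call in 13 of 15 fits that left out an array. Recombination and crosslink repair genes were called lower for 4 of 23 and for 3 after quantile normalization, with medians of -0.79, -0.08 and -1.53. FANCI, of the Fanconi anaemia pathway, measured 7.98, 7.93 and 8.03 against 6.34, 7.44 and 5.70 (-1.49, adjusted p = 0.0323), with 35 of 44 probe sets lower without overlap. Of 42 replication-dependent histone genes, whose processing NELF is known to take part in, 1 was called lower, H4C2, at 8.32, 7.95 and 8.35 against 6.96, 7.93 and 6.96 (-0.93, adjusted p = 0.0458); it was not called after quantile normalization (-0.43, adjusted p = 0.137). The histone count is below the 4.19% of all genes.

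Oestrogen-induced genes were called lower for 7 of 29 measured members and higher for 0, beside 4.19% and 0.204% of all genes. Of the brightest genes 9.3% were called lower, and the median control level of this list was 8.23. After quantile normalization 2 were lower (2.14% of all genes), and 0 of the 29 were called in every fit that left out an array. Median differences were -0.56, -0.14 and -0.82 on replicates 1, 2 and 3. RERG, a RAS-like growth inhibitor, measured 8.69, 8.47 and 8.73 in control and 7.05, 7.73 and 6.23 in siNELF-B, with 9 of 9 probe sets lower without overlap (-1.63, adjusted p = 0.0106; -1.17 and 0.00163 after quantile normalization). ESR1, oestrogen receptor alpha itself, measured 7.72, 7.63 and 7.71 against 6.87, 7.18 and 6.36 (-0.89, adjusted p = 0.0259), and -0.40 after quantile normalization (adjusted p = 0.0672). The cyclin CCND1 was called at -0.74 (adjusted p = 0.0329) and measured -0.28 after quantile normalization (0.166). For RERG, ESR1 and CCND1 the siNELF-B arrays all lay below the controls. Luminal identity genes were called lower for 1 of 20, the keratin KRT15 (-0.77, adjusted p = 0.0451), a share near that of all genes.

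**Figure D4:**
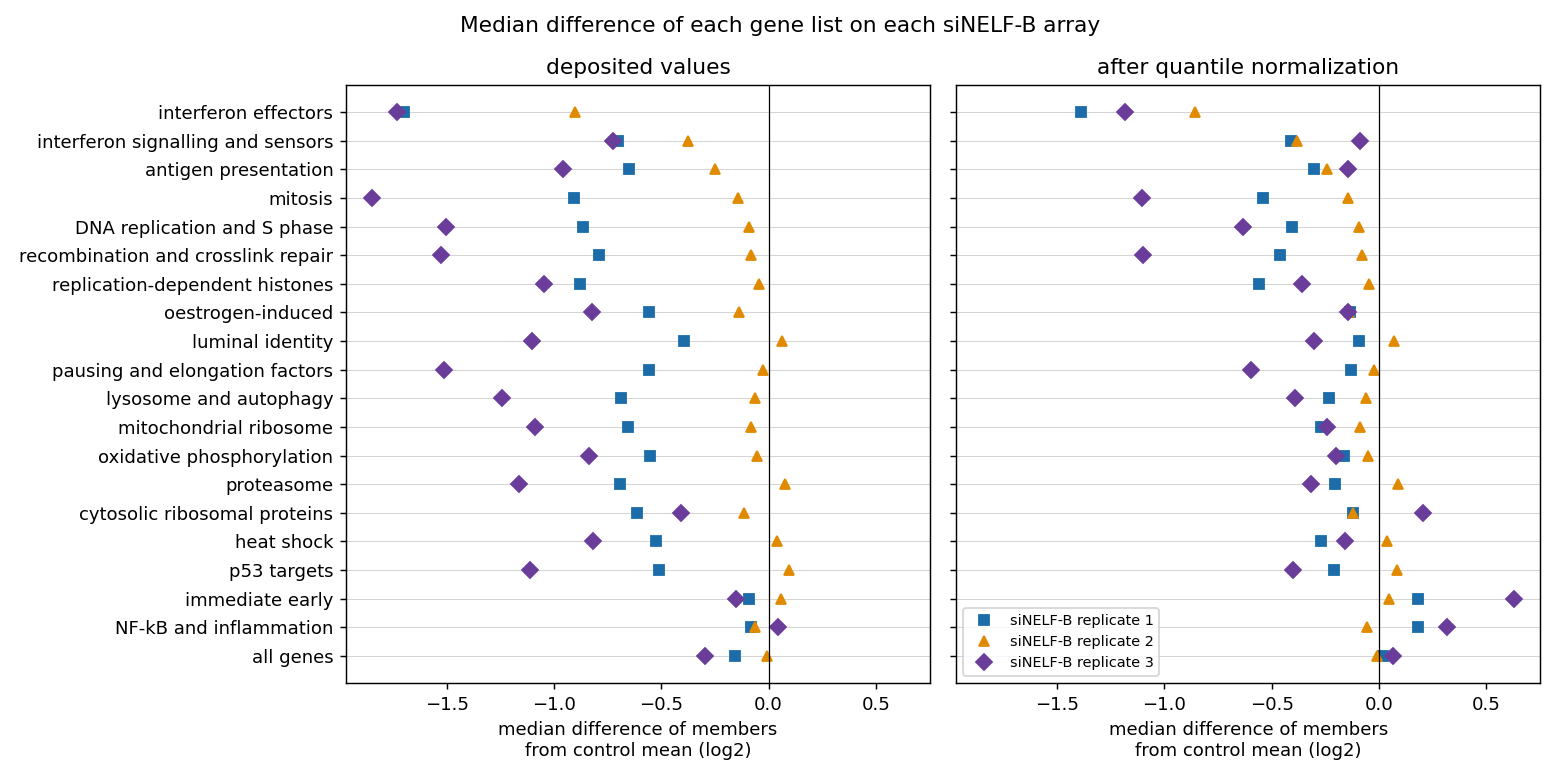
Median difference from the control mean (log2, horizontal axis) of 19 gene lists and of all genes, on siNELF-B replicates 1 to 3, with deposited values on the left and after quantile normalization on the right. Interferon effectors are at -0.91 on replicate 2, where mitosis genes are at -0.14 and all genes at -0.01.

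Genes of pausing and elongation, the machinery NELF works with, were called lower for 2 of 27 and higher for 0, and for 0 after quantile normalization. The count lies between the 4.19% of all genes and the 9.3% of the brightest, and is no result about the list. Their medians were -0.56, -0.03 and -1.51 on replicates 1, 2 and 3. CCNT1, the cyclin of P-TEFb, measured 7.74, 7.49 and 7.71 in control and 6.13, 7.10 and 4.39 in siNELF-B (-1.77, adjusted p = 0.0484). EAF1, a partner of the elongation factor ELL, measured 6.98, 7.01 and 7.18 against 6.01, 6.65 and 5.56 (-0.98, adjusted p = 0.0384). Each lost its call in 13 of 15 fits that left out an array. Immediate early genes, which are typical paused genes, were called lower for 1 of 27 (DUSP6, -0.67, adjusted p = 0.0489) and higher for 1 (FOSL1). MYC, at 7.77, 7.82 and 7.92 in control and 7.45, 8.16 and 7.86 in siNELF-B, had overlapping groups and no call (-0.01, adjusted p = 0.977). Heat shock genes, another paused class, were called for 0 of 17 and NF-kB and inflammatory genes for 0 of 25. These counts stand beside 4.19% lower and 0.204% higher over all genes.

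Other lists held between 0 and 7 members called lower, to be read against 4.19% of all genes and 9.3% of the brightest. The counts were 2 of 22 p53 targets, 4 of 28 unfolded protein and ATF4 response genes, 2 of 21 cholesterol synthesis genes and 3 of 29 hypoxia and glycolysis genes. They were 2 of 46 oxidative phosphorylation genes, 7 of 64 mitochondrial ribosomal genes, 2 of 25 proteasome genes and 0 of 25 cytosolic ribosomal protein genes. For matrix genes the count was 1 of 39, for apoptosis regulators 2 of 28, for lysosome and autophagy genes 4 of 31 and for G1 regulators 2 of 18; 0 members were called higher in these 12 lists. After quantile normalization (2.14% of all genes lower) each of the 12 held 0 to 2 lower calls. The death receptor FAS, a p53 target, measured 7.17, 7.17 and 7.22 in control and 5.46, 6.35 and 5.03 in siNELF-B (-1.57, adjusted p = 0.0082; -1.18 and 0.00221 after quantile normalization). DNAJC3, a chaperone of the endoplasmic reticulum, measured 7.09, 6.96 and 6.97 against 4.80, 6.04 and 2.82 (-2.45, adjusted p = 0.0336). RB1, the retinoblastoma protein, measured 7.28, 7.32 and 7.30 against 5.72, 6.46 and 4.74 (-1.66, adjusted p = 0.0192), with 25 of 30 probe sets lower without overlap. None of these 3 was called on the 6 arrays (adjusted p = 0.392 for each), and replicate 2 was the least changed array for each.

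On the deposited values, genes called higher in siNELF-B were few and mostly dim. They numbered 45, against 211 after quantile normalization. After centring on the 75th percentile 392 were higher and 348 lower. VTCN1, the B7 family checkpoint ligand B7-H4, measured 5.27, 5.05 and 5.62 in control and 7.04, 7.78 and 6.05 in siNELF-B, a 3.12-fold rise (1.64, SE 0.34, adjusted p = 0.0261; 0.392 on the 6 arrays). Here replicate 2 was the farthest from the controls. Of its 13 probe sets, 8 were higher without overlap, beside 14136 of all 287329 probe sets. After quantile normalization the VTCN1 change was 2.07 (adjusted p = 0.000197). Without that step siNELF-B, at 1.64, stood beside changes of 0.48 for siNELF-A, 3.0 for siNELF-C and 1.57 for siNELF-E. By limma siNELF-B was not called against any of these knockdowns (adjusted p = 0.0712, 0.0582 and 0.92). BCAS1, a gene amplified in some breast cancers, measured 5.69, 5.61 and 5.78 against 6.87, 7.08 and 6.14 (1.00, adjusted p = 0.0232; 1.45 and 3.84e-05 after quantile normalization). ATP2A3, a calcium pump of the endoplasmic reticulum, rose by 0.77 on the log2 scale (adjusted p = 0.0145), with 18 of 31 probe sets higher without overlap. FOSL1, an AP-1 component, measured 4.47, 4.61 and 4.07 in control and 5.43, 4.92 and 5.50 in siNELF-B (0.90, adjusted p = 0.0308). The sphingosine phosphate receptor S1PR5 rose by 0.97 (adjusted p = 0.0447). The groups do not overlap for any of these 5 genes; VTCN1, BCAS1, ATP2A3, FOSL1 and S1PR5 lost their call in 4, 4, 3, 7 and 12 of 15 fits that left out an array.

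Markers were checked against the cell line's label. The 20 luminal genes had a mean level of 8.60 to 8.72 on the control arrays and 7.65 to 8.73 on the siNELF-B arrays, and 19 and 20 of them lay above the 40th percentile of gene levels, a log2 value of 3.90. The 5 measured basal markers had means of 4.82 to 4.90 in control and 4.70 to 5.05 in siNELF-B, with 4 of the 5 above that percentile in both groups. Mesenchymal, endothelial and leukocyte markers had means of 2.76 to 2.86, 2.76 to 2.91 and 2.80 to 3.03 in control. In siNELF-B they had means of 2.73 to 3.04, 2.83 to 3.31 and 3.04 to 3.45. Of the 10 leukocyte markers, 1 was called higher: MS4A1, which encodes the B cell antigen CD20, at 2.95, 2.38 and 3.09 in control and 4.17, 4.43 and 4.13 in siNELF-B (1.44, adjusted p = 0.0236). It rests on 1 probe set at exon level, and its control values lie below that percentile and its siNELF-B values above it. The part of other cell types in these results was not tested.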

How the data were processed

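The deposited values are on a log2 scale. Per the labels, the authors obtained them by robust multi-array averaging (RMA) in ArrayAssist (Stratagene) over core exons on build hg18; its version is not given in the sources used here. They cover 22011 transcript clusters at gene level and 287329 probe sets at exon level, used as deposited. Symbols came from the platform annotation, updated through RefSeq: 14432 clusters carried 1 symbol, 2408 several and 5171 were not listed.

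In limma 3.58.1 (R 4.3.3), lmFit and eBayes fitted 5 group means to 15 arrays. Calls required a Benjamini-Hochberg adjusted p below 0.05 and 1.5-fold. The fit was tested on simulated data. With 3 arrays per group, the number of arrays limits precision. Counts "on the 6 arrays" refit both groups alone. Same-numbered control and siNELF-B arrays deviated from their group means with correlations of -0.028, -0.194 and -0.297. Differently numbered arrays were not compared, so these values do not settle whether the numbers pair the arrays. The main fit did not pair them.

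The members, the lists and the alternatives were chosen with earlier results of these data known. Named genes carry 1 symbol and, as the brighter group mean, a level at or above the 40th percentile: NELF subunits, the 12 highest and 12 lowest calls without overlap, up to 6 per direction called against every other knockdown, up to 4 called and 2 bright uncalled members of each list, and the 6 widest gaps. Genes called whichever array was left out, interferon members, ISG15, ANXA1 and OR52N5 were added after their values were seen. A symbol with several clusters was represented by the brighter one. No column was left unused.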

Additional observations from a re-analysis of the deposited data

Results flagged for a closer look

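In the genes RWDD4, UBL3, RP2, CRIPT, SLC49A4 and SLC35A5 the change in siNELF-B differed from that in each of the other 3 knockdowns by limma. The genes were named because they passed these same tests, so the p-values below describe that choice and are no further evidence. They also rest on the spread shared by all groups, which is smaller than that of siNELF-B, and are too small. With 6-array fits for each pair of groups, 0 genes were called against control and each other knockdown. Against the knockdown with the nearest change, the difference was -2.01 for RWDD4 (siNELF-C, adjusted p = 0.0328) and -2.37 for UBL3 (siNELF-A, adjusted p = 0.0209). It was -1.55 for RP2 (siNELF-A, adjusted p = 0.0209) and -1.54 for CRIPT (siNELF-C, adjusted p = 0.029). For SLC49A4 it was -1.67 (siNELF-C, adjusted p = 0.00942), and for SLC35A5 -1.06 (siNELF-A, adjusted p = 0.0469). The spread of the siNELF-B arrays, whose SD for these genes ran from 0.74 for SLC35A5 to 1.46 for UBL3, moves with these results, and its part in them was not tested.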

How the results depend on the processing

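The counts moved with nearly every setting. After quantile normalization 472 genes were lower, 211 higher, 70 were called against control and each other knockdown, 287 probe sets were called and 2204 genes lay wholly above control. With median centring the higher, particular and wholly higher counts were 135, 61 and 2416. Centring on the 75th percentile gave 348 lower, 392 higher, 71 particular, 1919 wholly lower and 3211 wholly higher. Without low genes 1861 were lower, 59 particular and 514 wholly higher. The 6 arrays alone gave 12 lower, 0 higher, 0 particular and 0 probe sets. With the replicate number as a block the counts were 404 lower, 17 higher, 18 particular and 162 probe sets. Array weights gave 4767, 710 and 1113, with weights of 4.08, 0.172 and 0.116 for siNELF-B replicates 1, 2 and 3. The interquartile range as a covariate gave 121 lower and 107 higher. Without siNELF-B replicates 2 and 3, where the lone array is assumed to vary like the other groups, there were 3923 lower, 301 higher, 643 particular, 14491 probe sets, 10925 wholly lower and 5356 wholly higher. Leaving out 1 array gave 83 to 6676 lower, 4 to 774 higher, 3 to 1681 particular, 70 to 68143 probe sets, 4032 to 9295 wholly lower and 1690 to 3631 wholly higher. ZNF681, called at -1.29, was 0.06 as the median of its 4 probe sets. Except where the smaller number of arrays sets the count, the cause was not tested. With 3 arrays per group the number of arrays limits precision; signal over background was not assessed here, and leaving out low genes moved the lower count from 922 to 1861.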
